A study of Mus musculus with 40 samples.

Results

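The time by allergen interaction in AJ lung asks how far the effect of an inhaled allergen at 24 h differed from its effect at 6 h. For each gene it was the allergen minus PBS difference at 24 h minus the allergen minus PBS difference at 6 h. It rests on 20 of the 40 arrays of the series and on 4 of its 8 groups, all of them from AJ, a mouse strain that the labels call hyperresponsive. The groups were AJ lung 6 h after aspiration of the allergen in phosphate-buffered saline (PBS), AJ lung 6 h after aspiration of PBS alone, and the same allergen and PBS groups at 24 h, each with 5 arrays of total RNA. The other 20 arrays held C3H lung under the same conditions. Titles write the allergen as OVA and descriptions as HDM, and it is called the allergen throughout. Strain was taken from the titles, since all 40 descriptions say AJ while 20 titles carry C3H. One AJ title, that of the fifth allergen array at 6 h, carries the letter b where the others carry a, and the labels do not say why. The labels do not say that each array came from its own mouse, so the p-values cover the variation among these arrays alone, which may be technical. The age, the sex and any sensitization of the mice, and the clock time of collection, were not given either.

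Airway allergen challenge is known to set off an early wave of cytokines and chemokines, followed by entry of granulocytes and mononuclear cells and by a slower change of the airway epithelium and of macrophages under type 2 cytokines. Many early transcripts are short-lived, and the signals that raise them also raise inhibitors that shut them off. A pass at 1 time and a miss at the other do not show that the times differ, and the interaction is the test of that difference.

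The values were deposited intensities, the brightness of a probe set on the array, and were analysed as log2(intensity + 16). Differences are on that scale throughout and are given ± their standard error; the added 16 makes them understate the change of dim genes. Array medians lay between 63.7 and 77.3 over the AJ arrays. The lung label held in all 4 groups. Sftpc, the surfactant protein C gene of alveolar type II cells, averaged 12.27 and 12.43 in allergen and PBS arrays at 6 h, and 12.42 and 12.51 at 24 h. Scgb1a1, the club cell secretoglobin, averaged 12.27 and 12.36 at 6 h and 12.42 and 12.51 at 24 h, again allergen before PBS. In bulk lung RNA, fewer cells of a type and less RNA per cell cannot be told apart, and this holds for every gene below.

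Between 6 h and 24 h the allergen effect receded for early cytokines and chemokines such as Il6 (interaction -2.39 ± 0.30) and Cxcl2 (-2.59 ± 0.35) and for antiviral genes such as Mx2 (-2.16 ± 0.35). It was positive for the macrophage scavenger receptor Cd163 (2.29 ± 0.29) and for complement factor B, Cfb (1.59 ± 0.30). Endothelial regulators such as Sox18 (1.99 ± 0.26) and the chaperone Hspa1b (3.69 ± 0.33) were lower with allergen at 6 h, Hspa1b through a high level in PBS arrays. Goblet cell genes such as Clca1 had large effects at both times. Of 12393 genes, 697 passed the interaction (limma, Benjamini-Hochberg adjusted p under 0.05 over all genes), which is 5.62%. A negative interaction, found for 260 genes (2.1%), means that the allergen effect was lower at 24 h than at 6 h. A positive one, found for 437 genes (3.53%), means that it was higher at 24 h. The median interaction over all genes was 0.06. At 6 h alone, 2358 genes passed (19.0%), 871 of them higher with allergen (7.03%) and 1487 lower (12.0%). At 24 h alone, 971 passed (7.84%), 565 higher (4.56%) and 406 lower (3.28%). The balance of signs depended on the scaling: with every array centred on its own median, 44.84% of 611 interaction genes were positive, against 62.7% of the 697, and 53.17% of the genes that passed at 6 h were higher, against 36.94%.

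The single-time effects sorted the genes into classes. Transient genes passed at 6 h and not at 24 h, late genes at 24 h and not at 6 h, sustained genes at both with the same sign, and opposed genes at both with opposite signs. There were 1861 transient genes, 524 higher (4.23% of all genes) and 1337 lower (10.8%). There were 478 sustained genes, 343 higher (2.77%) and 135 lower (1.09%). There were 474 late genes, 207 higher (1.67%) and 267 lower (2.15%). Another 19 genes were opposed, a count that fell to as few as 8 without 1 AJ array, and 9561 passed at neither time. Most sorted genes did not pass the interaction itself. It was passed by 171 of the 524 transient higher genes, 344 of the 1337 transient lower genes, 45 of the 207 late higher genes and 33 of the 267 late lower genes. As shares of all genes, these are 1.38%, 2.78%, 0.363% and 0.266%. Among sustained genes, the effect waned between the times in 39 of the higher and 7 of the lower genes, and grew in 13 of the higher and 4 of the lower genes. The other 415 sustained genes did not pass, which does not show equal effects: the 95% interval of their interaction had a median half-width of 0.47, and in 77 of them it lay within 0.5 of 0. The classes and the interaction use the same arrays, so these shares are a description. At the threshold, Cited2, a transcriptional co-regulator, was just inside with an interaction of 0.53, and Plk3, a stress-responsive kinase, just outside with -1.40.

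**Figure D1:**
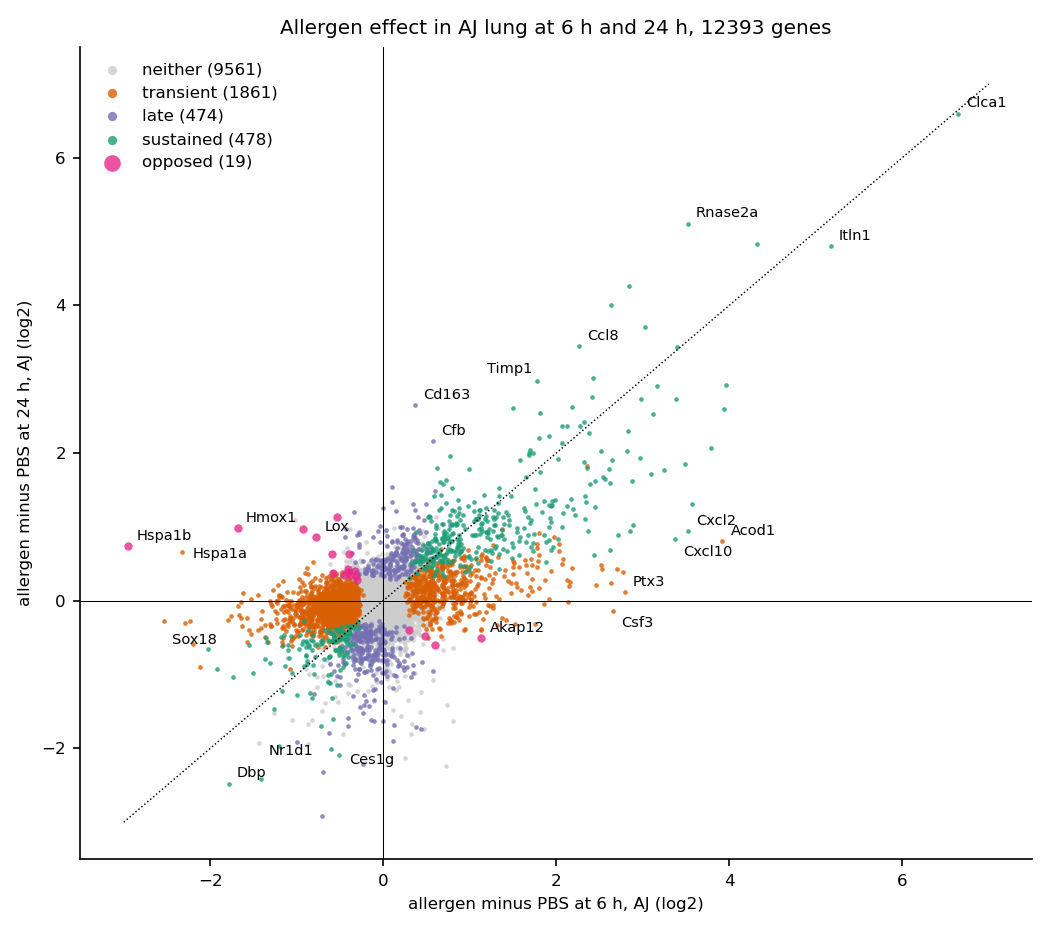
Each point is 1 of the 12393 genes, with its allergen minus PBS difference in AJ lung at 6 h on the x axis and at 24 h on the y axis (both log2), coloured by class; the dotted line marks equal effects. Transient genes lie along the horizontal axis, 524 to the right and 1337 to the left, late genes along the vertical axis, and Hspa1b at -2.95 and 0.74 is the opposed gene farthest to the left.

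The interaction joins a change over time in the allergen arrays and one in the PBS arrays. Between 6 h and 24 h, 2373 genes passed in the allergen arrays (19.1%) and 666 in the PBS arrays (5.37%). The PBS count was 342 without the second PBS array at 6 h, 350 without the third, and 412 without the second at 24 h. Of the 260 genes with a negative interaction, 201 passed the time comparison in the allergen arrays and not in the PBS arrays, 22 in the PBS arrays and not in the allergen arrays, 25 in both and 12 in neither. Of the 437 with a positive interaction, 353 passed in the allergen arrays and not in the PBS arrays, 40 in the PBS arrays and not in the allergen arrays, 10 in both and 34 in neither. Ptx3, Il6, Cxcl10, Sox18 and Cd163 belong to those whose PBS arrays did not pass. Hspa1b, Hspa1a, Hmox1 and Lox belong to those whose PBS arrays passed while their allergen arrays did not, and they are described apart.

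**Figure D2:**
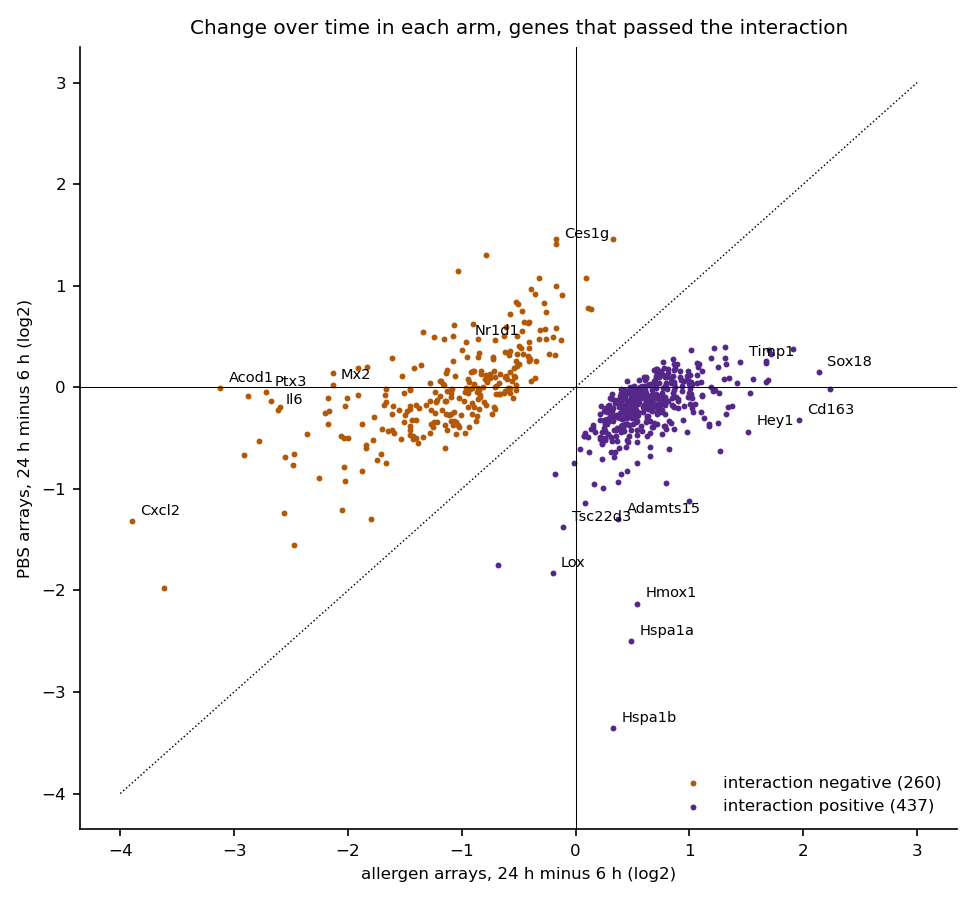
Each point is 1 of the 697 genes that passed the interaction in AJ lung, with its 24 h minus 6 h change in allergen arrays on the x axis and in PBS arrays on the y axis (both log2); the dotted line marks equal change. Most of the 260 negative genes (brown) lie to the left and most of the 437 positive genes (purple) to the right near a PBS change of 0, while Hspa1b, Hspa1a, Hmox1 and Lox lie low, with PBS changes of -3.36, -2.50, -2.13 and -1.83.

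The transient higher class held many of the early cytokines and feedback inhibitors, while neutrophil-attracting chemokines were transient, waning or in no class. Of 10 early inflammatory cytokines, 5 were transient higher and 1 was sustained higher, and Il6, Tnf and Il1a passed the interaction, all negative. Of 11 neutrophil-attracting chemokines and Csf genes, 2 were transient higher and 5 sustained higher, and all 7 passed with a negative interaction: the 5 sustained ones, Cxcl1, Cxcl2, Cxcl5, Ccl3 and Ccl4, were still higher at 24 h but by less. That is 63.6% of the list, with a median interaction of -1.65 against 0.06 over all genes.

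Ptx3, the long pentraxin that binds microbes and complement, measured 328, 242, 234, 188 and 147 in the 5 allergen arrays at 6 h, against 19.8, 14.9, 15.5, 19.1 and 22.2 in PBS arrays. By 24 h the values were 18.97, 19.9, 26.8, 18.4 and 16.2 in allergen arrays, against 17.1, 12.8, 14.5, 22.2 and 19.8 in PBS arrays. Every allergen array was above every PBS array at 6 h, and the groups overlapped at 24 h. Many of the genes shown, Ptx3 among them, were picked from those whose groups did not overlap where their effect passed. That separation is therefore no result, here and below. Its interaction was -2.68 ± 0.22, with a limma adjusted p of 4.39e-10. Il6, the interleukin 6 gene, measured 241, 599, 127, 159.8 and 148 in allergen arrays at 6 h, against 16.1, 24.1, 15.6, 21.1 and 12.7 in PBS arrays. At 24 h Il6 measured 19.8, 21.9, 26.4, 24.4 and 16.2 in allergen arrays and 7.74, 13.8, 16.6, 13.3 and 12.96 in PBS arrays, so the separation at 6 h had given way to overlap. Its interaction was -2.39 ± 0.30 (adjusted p = 1.53e-06). Csf3 encodes granulocyte colony-stimulating factor, which drives neutrophil output from the marrow. It measured 125, 556, 144, 119.8 and 70.1 in allergen arrays at 6 h, against 8.03, 8.52, 10.3, 33.96 and 3.48 in PBS arrays. At 24 h both groups were dim, with 9.54, 5.46, 11.6, 5.26 and 5.65 in allergen arrays and 22.9, 5.06, 5.03, 12.4 and 6.83 in PBS arrays, and the interaction was -2.79 ± 0.50 (adjusted p = 0.000321).

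Acod1, which makes itaconate in activated macrophages, had the largest negative interaction among the named genes that passed, -3.11 ± 0.45 (adjusted p = 1.2e-05). It measured 363, 436, 259.6, 158 and 209 in allergen arrays at 6 h, against 2.23, 3.23, 2.39, 4.17 and 1.95 in PBS arrays. At 24 h the allergen arrays ranged widely, with 49.1, 12.5, 24.3, 9.57 and 3.25, against 2.06, 2.23, 3.90, 3.35 and 1.74 in PBS arrays. The groups overlapped there through 1 allergen array, and the 24 h effect of 0.81 ± 0.32 did not pass (adjusted p = 0.127), although it did with a pseudocount of 1, which turned Acod1 into a sustained gene. Zc3h12a, a ribonuclease that degrades Il6 mRNA, was transient as well, with effects of 2.63 ± 0.18 at 6 h and 0.24 ± 0.18 at 24 h and an interaction of -2.40 ± 0.26. Rnf19b, a ubiquitin ligase, had an interaction of -2.27 ± 0.33.

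Cxcl2 encodes a ligand of the neutrophil receptor Cxcr2. It measured 1129, 1918, 1034, 601 and 820.2 in allergen arrays at 6 h, against 38.2, 197, 58.1, 106 and 40.4 in PBS arrays. The 24 h values were 51.9, 53.4, 66.3, 44.9 and 52.2 in allergen arrays, against 19.7, 22.1, 17.6, 25.1 and 17.2 in PBS arrays. The groups did not overlap at either time, and the PBS arrays were lower at 24 h than at 6 h (-1.31 ± 0.25, adjusted p = 0.000862). Its interaction was -2.59 ± 0.35 (adjusted p = 4.34e-06), and in 3 alternative fits the 24 h effect did not pass. Ccl3, an inflammatory chemokine, and Ccl20, a ligand of Ccr6, had interactions of -2.25 ± 0.40 and -2.25 ± 0.34. Ccl20 was transient, with a 24 h effect of 0.22 ± 0.24, and the call of Ccl3 was lost with a pseudocount of 1. The 24 h effect of Ccl3 did not pass with the mean levels of muscle and adipose markers as covariates (limma adjusted p = 0.0965). Cxcl10, a ligand of Cxcr3 on T and NK cells, measured 686, 628, 421, 253 and 474 in allergen arrays at 6 h, against 35.4, 36.7, 20.7, 37.2 and 25.6 in PBS arrays. At 24 h Cxcl10 measured 41.5, 56.9, 98.2, 77.7 and 38.9 in allergen arrays and 19.6, 32.1, 26.5, 24.2 and 31.1 in PBS arrays. Cxcl10 too was apart at both times and waned, with an interaction of -2.54 ± 0.31 (adjusted p = 9.88e-07).

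The promoters of Cxcl2 and Ccl20 are shown for the neutrophil-attracting list. They were picked among promoters of list members that passed the interaction and already held the marked motif. Finding the motif in them is therefore no result. The promoters are RefSeq GRCm38.p6 windows from 250 bases before to 50 bases after the annotated gene start, for Cxcl2 chr5:90903649-90903948 and for Ccl20 chr1:83116516-83116815, both on the plus strand. Capitals mark GGNNTTTCC, a kappa B core with its flank, searched on both strands.
Cxcl2: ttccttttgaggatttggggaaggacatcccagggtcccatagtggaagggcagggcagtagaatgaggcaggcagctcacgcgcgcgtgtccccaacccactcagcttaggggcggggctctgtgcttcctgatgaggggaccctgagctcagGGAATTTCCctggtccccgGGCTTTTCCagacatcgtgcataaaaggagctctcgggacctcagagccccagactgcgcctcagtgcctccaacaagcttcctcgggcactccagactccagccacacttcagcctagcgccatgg
Ccl20: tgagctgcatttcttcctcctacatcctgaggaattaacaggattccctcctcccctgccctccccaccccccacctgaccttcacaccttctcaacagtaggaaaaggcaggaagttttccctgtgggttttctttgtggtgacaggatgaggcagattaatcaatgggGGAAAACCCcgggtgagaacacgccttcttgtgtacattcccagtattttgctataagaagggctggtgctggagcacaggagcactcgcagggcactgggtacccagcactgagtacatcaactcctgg
Cxcl2 held 2 matches and Ccl20 held 1, on the other strand. The motif was in the windows of 5 of the 8 genes of the neutrophil-attracting list that had an entry, 62.5%, and in 7.13% of the windows of the 9887 measured genes with one. In the 171 transient higher genes that passed the interaction, it was in 13.4% of the 142 windows. A match is a description of the letters, not a site or a cause.

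Neutrophil markers moved with these chemokines. Of 20 neutrophil markers, 6 were transient higher and 9 sustained higher, and 6 passed the interaction, all negative. Trem1, an activating receptor of neutrophils and monocytes, had an interaction of -2.03 ± 0.26, and Ngp and Camp, granule proteins, -1.84 ± 0.30 and -1.60 ± 0.33. The mean log2 level of the list lay between 7.76 and 8.11 in allergen arrays at 6 h, against 6.14 to 6.66 in PBS arrays. At 24 h it lay between 6.81 and 7.40 in allergen arrays, against 6.04 to 6.25 in PBS arrays. The part of neutrophil number in the chemokine results was not tested.

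Inhibitors of inflammatory signalling were among the lists with the highest share of interaction calls. Of 18 measured, 7 were transient higher, 8 sustained higher and 1 transient lower; 10 passed with a negative interaction and 1 with a positive one (61.1%, median -0.91). Bcl3, a nuclear I kappa B protein, had effects of 2.62 ± 0.19 at 6 h and 0.68 ± 0.19 at 24 h and an interaction of -1.94 ± 0.27. Il1r2, the decoy receptor of interleukin 1, had an interaction of -1.82 ± 0.30. Tnip1, a partner of the ubiquitin-editing enzyme Tnfaip3, and Cish, an inhibitor of Stat5 signalling, were transient, with -1.44 ± 0.19 and -1.42 ± 0.20. The exception in sign was Tsc22d3, the glucocorticoid-induced leucine zipper, with 1.27 ± 0.31, a call that was lost with the mean levels of muscle and adipose markers as covariates (adjusted p = 0.0609). Of 23 immediate early transcription factors, 7 were transient higher, 2 sustained higher and 1 transient lower, and 6 passed the interaction, all negative. Junb, an AP-1 subunit, had -1.24 ± 0.30, and Ier2 -1.02 ± 0.21. The call of Egr1, a zinc finger factor (-1.14 ± 0.33), was lost in 7 of the 20 fits that left out 1 AJ array, with an adjusted p of up to 0.0724, and that of Tnf (-1.27 ± 0.37) in 10, with up to 0.0786.

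Interferon-stimulated antiviral genes fell mostly in the transient higher class, 14 of 22 measured, with 3 sustained higher and 2 late higher. Of the 22, 9 passed the interaction (40.9%), all negative, and the list's median was -0.44. Mx2, a dynamin-like GTPase that restricts viruses, measured 167, 189, 120.4, 15.8 and 62.03 in allergen arrays at 6 h, against 5.94, 9.58, 7.92, 7.93 and 7.88 in PBS arrays. At 24 h it measured 4.86, 8.25, 10.2, 9.05 and 7.48 in allergen arrays and 6.38, 7.54, 7.18, 11.98 and 8.34 in PBS arrays. The allergen arrays at 6 h were all above the PBS arrays but spread from 15.8 to 189, and at 24 h the groups overlapped; the interaction was -2.16 ± 0.35 (adjusted p = 8.81e-05). Rsad2, the antiviral enzyme viperin, measured 822, 1169, 691, 455 and 1169 in allergen arrays at 6 h, against 227, 250.3, 276, 184 and 142 in PBS arrays. At 24 h Rsad2 measured 216, 210.0, 176, 200.5 and 126 in allergen arrays, against 118, 185, 208, 173 and 84.7 in PBS arrays, again with separation at 6 h and overlap at 24 h. Its interaction was -1.58 ± 0.30 (adjusted p = 0.000867). Mx1 and Oasl1 had interactions of -1.32 ± 0.21 and -1.51 ± 0.23. Oas1a, Oas2 and Irf7 were sustained instead, with interactions of 0.01 ± 0.20, -0.24 ± 0.23 and 0.21 ± 0.26 that did not pass. Of 16 interferon gamma induced GTPases and regulators, 7 were transient higher, 3 sustained higher and 1 late higher, and 3 passed the interaction, all negative. Among these, Irf1, a factor of interferon responses, had -0.75 ± 0.20.

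The promoters of Rsad2 and Ifit1, picked in the same way for holding the motif, show the letters that antiviral genes often share. They are RefSeq GRCm38.p6 windows, chr12:26456403-26456702 on the minus strand for Rsad2 and chr19:34640639-34640938 on the plus strand for Ifit1. Capitals mark GAAANNGAA, the core of the interferon-stimulated response element, searched on both strands, and neighbouring matches may overlap.
Rsad2: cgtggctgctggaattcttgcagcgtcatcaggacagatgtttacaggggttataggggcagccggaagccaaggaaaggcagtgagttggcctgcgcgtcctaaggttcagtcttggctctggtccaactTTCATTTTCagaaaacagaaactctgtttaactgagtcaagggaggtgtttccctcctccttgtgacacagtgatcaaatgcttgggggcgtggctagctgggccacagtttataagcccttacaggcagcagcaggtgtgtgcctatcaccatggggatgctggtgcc
Ifit1: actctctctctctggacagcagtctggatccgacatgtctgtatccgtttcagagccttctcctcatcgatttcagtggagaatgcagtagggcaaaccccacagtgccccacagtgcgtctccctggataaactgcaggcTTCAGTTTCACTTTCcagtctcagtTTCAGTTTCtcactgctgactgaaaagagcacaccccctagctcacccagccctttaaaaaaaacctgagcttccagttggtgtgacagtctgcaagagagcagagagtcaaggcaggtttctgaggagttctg
Rsad2 held 1 match and Ifit1 held 3. The motif was in 8 of the 16 windows of the antiviral list and in 8.63% of all 9887. In the 142 windows of transient higher genes that passed the interaction it was in 9.86%.

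**Figure D3:**
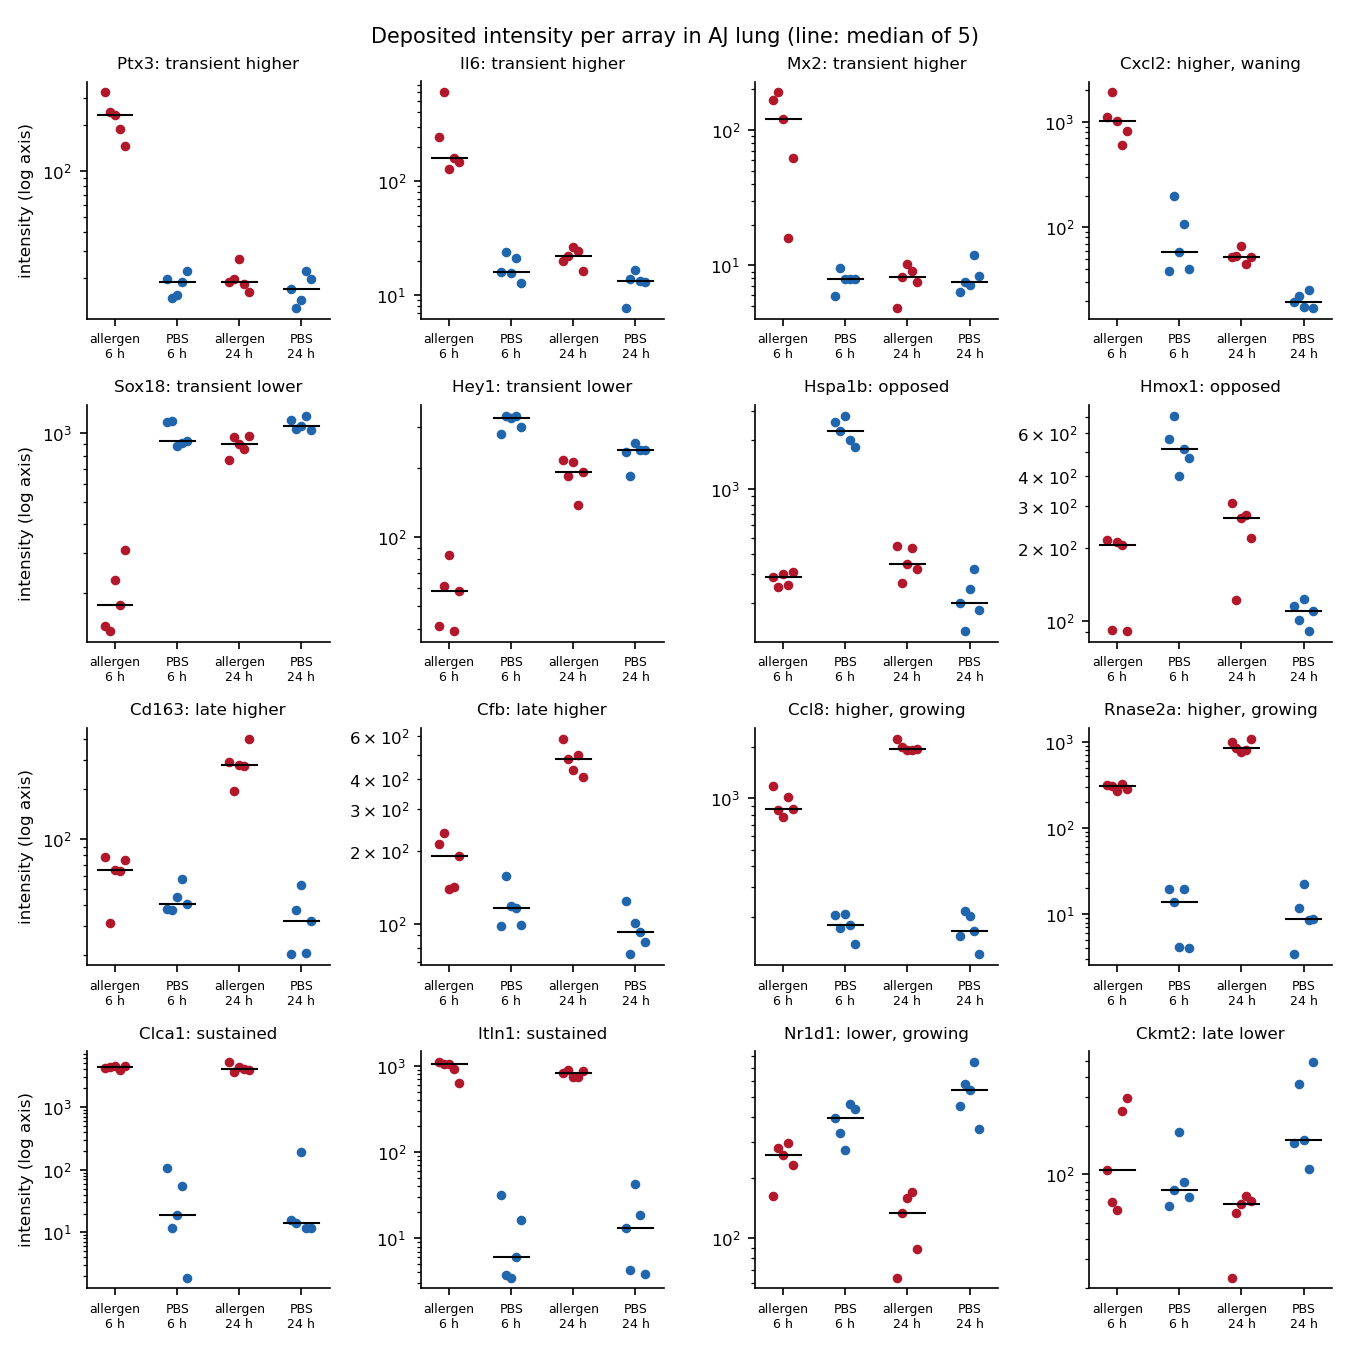
Deposited intensity (log axis) of 16 genes in each AJ array, in red for allergen and blue for PBS, at 6 h on the left and at 24 h on the right of each panel; the line is the median of 5 arrays. Ptx3, Il6 and Mx2 were apart at 6 h and overlapped at 24 h, Cd163 and Cfb the other way round, Clca1 and Itln1 were apart at both times, and the 5 PBS arrays of Hspa1b at 6 h, 1801 to 2829, lie above all its other arrays.

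Of 16 type 2 cytokines and targets, 6 were transient higher, 3 sustained higher and 1 late higher, and 2 passed the interaction, both negative. Il4, the interleukin 4 gene, measured 153, 93.3, 139, 119.6 and 82.3 in allergen arrays at 6 h, against 45.4, 37.8, 37.1, 57.7 and 22.5 in PBS arrays. At 24 h Il4 measured 36.9, 54.2, 55.8, 32.6 and 38.3 in allergen arrays, against 34.2, 34.2, 34.7, 47.5 and 22.4 in PBS arrays. The groups were apart at 6 h and overlapped at 24 h, and the interaction was -1.02 ± 0.24 (adjusted p = 0.00737). Il5 and Il13, the genes of the eosinophil growth factor and of the mucus-inducing cytokine, also passed at 6 h and not at 24 h, but their interactions of -0.71 ± 0.26 and -0.61 ± 0.29 did not pass (adjusted p = 0.115 and 0.265). Il13 was sustained in 3 of the 10 alternatives run for it. The other call was Il4ra, the shared receptor chain of interleukins 4 and 13, with -0.90 ± 0.24; its probe sets disagreed, and the call was lost with their mean.

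Goblet cell and mucus genes were mostly sustained or in no class. Of 22 measured, 11 were sustained higher, 1 late higher, 1 transient higher, 1 transient lower and 1 sustained lower, and none passed the interaction in limma, with a median of -0.04. Clca1, a secreted regulator of mucus and a marker of interleukin 13 action, measured 4195, 4408, 4579, 3907 and 4468 in allergen arrays at 6 h, against 106, 11.6, 19.1, 55.9 and 1.90 in PBS arrays. At 24 h Clca1 measured 5221, 3581, 4365, 4023 and 3933 in allergen arrays, against 16, 14.03, 192, 11.8 and 11.7 in PBS arrays. The groups were far apart at both times and the PBS arrays were dim and uneven, so its interaction of -0.04 ± 0.78 had a wide 95% interval, -1.61 to 1.53. Itln1, a secreted lectin, measured 1113, 1053, 1059, 936 and 632 in allergen arrays at 6 h, against 31.9, 3.71, 3.49, 5.99 and 16.2 in PBS arrays. By 24 h the values were 823, 908, 742, 744 and 869 in allergen arrays and 13.3, 4.26, 42.6, 18.4 and 3.82 in PBS arrays, with no overlap at either time and an interaction of -0.38 ± 0.37 (95% interval -1.12 to 0.37). Muc5ac, the gel-forming mucin of goblet cells, measured 190.4, 292, 294, 274 and 136 in allergen arrays at 6 h, against 22.5, 15.4, 8.42, 17.1 and 13.4 in PBS arrays. The 24 h values were 190.3, 252, 174, 197 and 147 in allergen arrays and 14.9, 17.1, 19.1, 11.1 and 12.4 in PBS arrays, again without overlap, and its interaction was -0.24 ± 0.45 (95% interval -1.16 to 0.68). Slc26a4, the epithelial anion exchanger pendrin, was higher by 3.03 ± 0.33 at 6 h and by 3.71 ± 0.33 at 24 h.

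Other sustained genes with large effects at both times were Chil4, a chitinase-like protein (4.32 ± 0.30 at 6 h and 4.83 ± 0.30 at 24 h), Ccl24, an eosinophil attractant (3.40 ± 0.31 and 3.43 ± 0.31), and S100a8, a calprotectin subunit of neutrophils (3.97 ± 0.46 and 2.92 ± 0.46). Their interactions of 0.50 ± 0.42, 0.03 ± 0.44 and -1.05 ± 0.65 did not pass, and all 3 intervals were wide: -0.34 to 1.35, -0.87 to 0.93 and -2.36 to 0.27. Among sustained lower genes, Bpifa1, a secreted airway defence protein, had effects of -1.21 ± 0.41 at 6 h and -1.97 ± 0.41 at 24 h, and Reep6, a protein of the endoplasmic reticulum, -1.41 ± 0.27 and -2.42 ± 0.27, with interactions that did not pass. Bpifa1 was late in 6 of 20 fits without 1 AJ array and with AJ arrays alone. It was transient with the muscle and adipose covariates, where its 24 h effect had an adjusted p of 0.0688.

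Alternatively activated macrophage genes were mostly sustained. Of 13 measured, 10 were sustained higher and 1 late higher, and 3 passed the interaction, all positive; none was transient. Of 24 scavenger and lysosomal genes, 11 were sustained higher and 5 late higher, and 3 passed, all positive. Cd163, the haemoglobin scavenger receptor of macrophages, measured 77.5, 31.1, 64.8, 64.5 and 75.1 in allergen arrays at 6 h, against 37.9, 37.2, 45.04, 57.2 and 40.8 in PBS arrays. At 24 h it measured 293, 194, 279, 275 and 402 in allergen arrays, against 20.3, 37.5, 53.01, 20.5 and 32.1 in PBS arrays. The groups overlapped at 6 h, and at 24 h the lowest allergen array was above the highest PBS array. Its interaction of 2.29 ± 0.29 (adjusted p = 1.48e-06) was the largest of the late higher genes named. Rnase2a, an eosinophil-associated ribonuclease, measured 315, 305, 266, 326 and 284 in allergen arrays at 6 h, against 19.8, 13.9, 4.20, 19.7 and 4.04 in PBS arrays. At 24 h Rnase2a measured 997, 855, 757, 802 and 1088 in allergen arrays, against 3.42, 11.8, 22.4, 8.60 and 8.89 in PBS arrays. It was apart at both times and grew, with an interaction of 1.59 ± 0.42 (adjusted p = 0.0162), a call that was lost with a pseudocount of 1 and with tissue covariates. Of 8 eosinophil markers, Rnase2a was the only one in a class, and their mean log2 level lay between 5.55 and 5.67 in allergen arrays at 6 h, against 4.85 to 5.33 in PBS arrays. At 24 h it lay between 5.80 and 5.92 in allergen arrays, against 4.89 to 5.19 in PBS arrays. That mean includes Rnase2a, and the median effect of the 8 markers was 0.19 at 6 h and 0.08 at 24 h. The defining eosinophil markers did not pass: Epx, eosinophil peroxidase, had effects of -0.03 ± 0.12 at 6 h and 0.01 ± 0.12 at 24 h, and Siglecf, a surface lectin of eosinophils and alveolar macrophages, 0.09 ± 0.15 and -0.01 ± 0.15. Prg2, the major basic protein, and Ccr3, the eotaxin receptor, passed at neither time.

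Further macrophage calls depended on single arrays. Mrc1, the mannose receptor (0.79 ± 0.25), Ctsk, cathepsin K (0.91 ± 0.28), Marco, a scavenger receptor (1.40 ± 0.42), and Cd68, a lysosomal glycoprotein (0.59 ± 0.17), lost the call in 16, 16, 11 and 8 of the 20 fits without 1 AJ array, with adjusted p of up to 0.109, 0.0914, 0.0952 and 0.0742. Arg1, arginase 1, was higher by 2.84 ± 0.34 at 6 h and 4.27 ± 0.34 at 24 h, and its interaction of 1.42 ± 0.48 did not pass (adjusted p = 0.0717).

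Chemokines for monocytes, eosinophils and lymphocytes were mostly sustained. Of 18 measured, 10 were sustained higher, 2 transient higher and 2 late higher; 1 passed with a negative interaction, Cxcl10, and 2 with a positive one, Ccl8 and Ccl9. Ccl8, a ligand of Ccr8 in the mouse, measured 1175, 850.3, 774, 1021 and 862 in allergen arrays at 6 h, against 205, 172, 209.8, 181 and 139.5 in PBS arrays. At 24 h Ccl8 measured 2242, 2004, 1935, 1929 and 1964 in allergen arrays, against 155, 217, 203, 166 and 121 in PBS arrays. The allergen arrays at 24 h were all above those at 6 h while the PBS arrays overlapped between the times, and the interaction was 1.19 ± 0.28 (adjusted p = 0.00755). That call was lost with tissue covariates, and that of Ccl9 (1.11 ± 0.34) in 15 of 20 fits without 1 array, with an adjusted p of up to 0.121. Unlike those of Ccl8, the PBS arrays of Ccl9 were lower at 24 h than at 6 h (-0.95, limma adjusted p = 0.016). This PBS change did not pass with tissue covariates or without the second PBS array at 6 h.

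Single genes of the complement, acute phase and matrix lists were late or growing. Cfb, complement factor B of the alternative pathway, measured 215, 239, 139, 142 and 192 in allergen arrays at 6 h, against 98.1, 158, 119, 117 and 98.7 in PBS arrays. By 24 h the values were 585, 482, 435, 501 and 407 in allergen arrays, against 124, 75.01, 101, 92.5 and 84.4 in PBS arrays. The groups overlapped at 6 h and were apart at 24 h, with an interaction of 1.59 ± 0.30 (adjusted p = 0.00067). Its class is uncertain: the 6 h effect of 0.57 ± 0.21 had an adjusted p of 0.0513, and 7 of 11 alternatives made Cfb a sustained gene. It was the only call among 15 complement genes, a share of 6.67% beside the 5.62% of all genes. Timp1, an inhibitor of matrix metalloproteinases, measured 469.5, 302, 363, 404 and 336 in allergen arrays at 6 h, against 80.2, 101, 85.5, 112 and 106 in PBS arrays. The 24 h values were 1363, 1186, 1197, 1178 and 524 in allergen arrays, against 176, 95.1, 94.3, 119 and 119 in PBS arrays. It was apart at both times, 1 allergen array at 24 h was far below the other 4, and the interaction was 1.20 ± 0.28 (adjusted p = 0.00549). Serpina3n, an acute phase serine protease inhibitor, had effects of 0.77 ± 0.19 and 1.96 ± 0.19 and an interaction of 1.19 ± 0.28, a call that was lost with muscle and adipose covariates (adjusted p = 0.0517). Of 29 matrix and remodelling genes, 5 passed with a positive interaction, among them the collagens Col5a2 (0.80 ± 0.17) and Col6a1 (0.68 ± 0.17), and 4 with a negative one, among them Mmp8, neutrophil collagenase (-1.51 ± 0.42), whose call was lost in 3 of 20 fits without 1 array. Other late higher genes were Fst, the activin antagonist follistatin (1.54 ± 0.29), Il18bp, the interleukin 18 binding protein (1.44 ± 0.27), and Npl, an enzyme of sialic acid breakdown (1.26 ± 0.15).

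**Figure D4:**
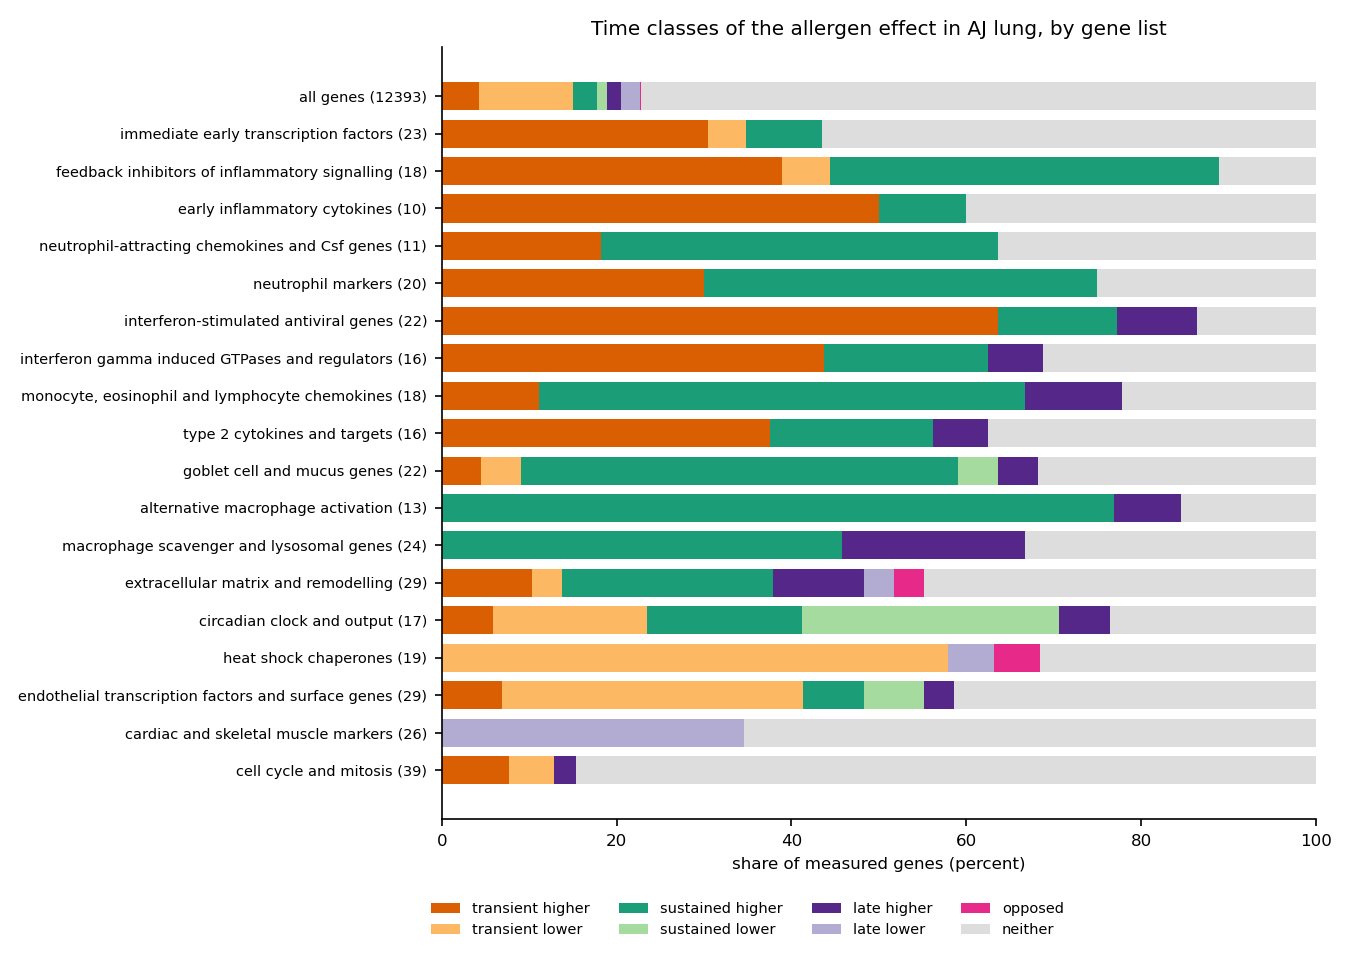
Each bar is a list of genes (number measured in brackets), split by the class of the allergen effect in AJ lung as a percent of the measured genes. The antiviral list is mostly transient higher (14 of 22), the alternative macrophage list sustained higher (10 of 13), the heat shock list transient lower (11 of 19), and among all genes 9561 of 12393 are in no class.

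Endothelial regulators were among the transient lower genes. Of 29 endothelial transcription factors and surface genes, 10 were transient lower, 2 transient higher, 2 sustained lower, 2 sustained higher and 1 late higher; 5 passed with a positive interaction and 3 with a negative one (27.6%). Sox18, a transcription factor of vessel development, measured 142, 136, 226, 177 and 307 in allergen arrays at 6 h, against 1123, 1138, 879, 908 and 926 in PBS arrays. At 24 h Sox18 measured 766, 962, 895, 853 and 977 in allergen arrays, against 1146, 1050.0, 1079, 1199 and 1039 in PBS arrays. The allergen arrays were all below the PBS arrays at both times, by far less at 24 h, where the effect of -0.31 ± 0.18 did not pass. The interaction was 1.99 ± 0.26 (adjusted p = 2.2e-06). Hey1, a Notch target, measured 41.1, 61.3, 83.5, 39.05 and 58.4 in allergen arrays at 6 h, against 281, 338, 329, 338 and 302 in PBS arrays. At 24 h Hey1 measured 216, 185, 212, 138 and 192 in allergen arrays, against 235, 185, 258, 239.6 and 238 in PBS arrays. It was apart at 6 h and overlapped at 24 h, with an interaction of 1.95 ± 0.20 (adjusted p = 5.21e-08).

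Meis1, a homeobox factor, measured 23.4, 8.64, 9.56, 4.14 and 3.11 in allergen arrays at 6 h, against 97.4, 114, 147, 133 and 155 in PBS arrays. At 24 h it measured 80.5, 82.8, 134, 96.6 and 120.2 in allergen arrays, against 134, 142, 92.5, 116 and 154 in PBS arrays. All 5 allergen arrays at 6 h were dim and apart from the rest, the groups overlapped at 24 h, and the interaction was 2.25 ± 0.34 (adjusted p = 3e-05). Sox17, a relative of Sox18, had 1.61 ± 0.26, and Ramp2, the adrenomedullin receptor partner, 0.98 ± 0.21. Pecam1 (CD31) had effects of 0.02 ± 0.11 at 6 h and -0.08 ± 0.11 at 24 h, and Cldn5, a tight junction protein, 0.11 ± 0.15 and -0.07 ± 0.15, none of which passed. The negative calls were leukocyte adhesion molecules: Selp (-1.18 ± 0.24), Icam1 (-0.71 ± 0.21) and Sele (-0.64 ± 0.20). Vcam1, another adhesion molecule, was higher by 0.71 ± 0.15 at 6 h and 0.94 ± 0.15 at 24 h. Outside the endothelium, Etv5, an ETS factor downstream of FGF signalling, was transient lower (1.24 ± 0.27), as was Rtkn2, a marker of alveolar type I cells (0.95 ± 0.23). Hoxb5 was lower at both times and waned (1.37 ± 0.27). Its 24 h call (adjusted p = 0.0254) was lost in 5 of 20 fits without 1 AJ array, with the muscle and adipose covariates and with a pseudocount of 1, with an adjusted p of up to 0.125, and the gene was then transient.

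Of 19 heat shock chaperones, which refold proteins under stress, 11 were transient lower, 1 late lower and 1 opposed. Among them 7 passed the interaction (36.8%), all positive, and the median was 0.42. Hspa1b, an inducible Hsp70, measured 287, 248, 302, 256 and 310.3 in allergen arrays at 6 h, against 2571, 2272, 2829, 2001 and 1801 in PBS arrays. At 24 h Hspa1b measured 444, 265, 346, 432 and 322 in allergen arrays, against 198, 134, 241, 322 and 181 in PBS arrays. The PBS arrays at 6 h were the high ones, far above the other 15 arrays, and at 24 h the groups overlapped. The allergen arrays did not differ by the test between the times (0.33 ± 0.23, adjusted p = 0.375). The change between the times lay in the PBS arrays (-3.36 ± 0.23, adjusted p = 1.59e-12). The interaction was 3.69 ± 0.33 (adjusted p = 1.53e-09). Hspa1a, its near-identical neighbour, measured 93.5, 93.8, 93.7, 90.6 and 97.7 in allergen arrays at 6 h, against 653, 544, 639.8, 549.5 and 351 in PBS arrays. At 24 h Hspa1a measured 151, 132, 126, 131 and 153 in allergen arrays, against 79.1, 54.8, 114, 105 and 66.4 in PBS arrays. It showed the same order, with an interaction of 2.99 ± 0.36 and a PBS change of -2.50 ± 0.25, but the probe sets may read both genes, so the 2 are not independent. Hsph1 and Chordc1, further members of the heat shock programme, were transient lower, with interactions of 1.73 ± 0.25 and 1.28 ± 0.25. Hsph1 changed by -0.94 ± 0.18 in PBS arrays (adjusted p = 0.00108) and Chordc1 by -0.25 ± 0.18 (adjusted p = 0.462). Hspa5 and Hsp90b1, chaperones of the endoplasmic reticulum, had interactions of 0.42 ± 0.24 and 0.37 ± 0.21, which did not pass.

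The promoters of the Hsp70 genes were picked in the same way, for holding the element that names the group, and are much alike. They are RefSeq GRCm38.p6 windows on the minus strand, chr17:34959189-34959488 for Hspa1b and chr17:34972107-34972406 for Hspa1a, and 296 of their 300 bases are identical. Capitals mark GAANNTTC, the core of the heat shock element, which reads the same on both strands.
Hspa1b: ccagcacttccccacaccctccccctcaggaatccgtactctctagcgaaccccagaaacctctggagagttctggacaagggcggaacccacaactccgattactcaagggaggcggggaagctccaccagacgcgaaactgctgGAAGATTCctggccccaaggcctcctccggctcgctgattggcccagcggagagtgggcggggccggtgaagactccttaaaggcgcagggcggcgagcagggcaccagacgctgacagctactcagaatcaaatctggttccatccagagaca
Hspa1a: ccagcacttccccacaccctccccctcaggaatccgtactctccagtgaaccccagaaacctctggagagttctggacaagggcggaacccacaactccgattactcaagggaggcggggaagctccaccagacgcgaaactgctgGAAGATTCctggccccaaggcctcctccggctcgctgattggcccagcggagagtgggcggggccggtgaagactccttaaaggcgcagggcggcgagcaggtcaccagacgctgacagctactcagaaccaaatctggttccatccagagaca
Each window held 1 match. The motif was in 10 of the 16 windows of the heat shock list, 62.5%, and in 7.56% of all 9887. It was in 7.19% of the 278 windows of transient lower genes that passed the interaction.

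The opposed genes were few: 4 were higher at 6 h and lower at 24 h, and 15 were lower at 6 h and higher at 24 h. Hmox1, haem oxygenase 1, measured 216, 90.98, 211, 205 and 90.9 in allergen arrays at 6 h, against 565, 710.3, 398, 518 and 474 in PBS arrays. By 24 h the values were 306, 122, 265, 276 and 220.4 in allergen arrays, against 115, 101, 123, 90.5 and 109 in PBS arrays. The groups were apart at 6 h and overlapped by 1 array at 24 h, and the interaction was 2.67 ± 0.36 (adjusted p = 3.95e-06). The allergen arrays changed by 0.54 ± 0.25 between the times (adjusted p = 0.139) and the PBS arrays by -2.13 ± 0.25 (adjusted p = 4.73e-07). Lox, lysyl oxidase, which cross-links collagen and elastin, measured 1064, 499, 636, 547 and 451 in allergen arrays at 6 h, against 1078, 1503, 888, 818 and 1087 in PBS arrays. At 24 h Lox measured 473, 478, 397, 437 and 1028 in allergen arrays, against 299, 232, 354, 306 and 245 in PBS arrays. The groups overlapped at 6 h and were apart at 24 h, where 1 allergen array stood far above the other 4. The interaction was 1.63 ± 0.35 (adjusted p = 0.00305), again with the change in the PBS arrays (-1.83 ± 0.25). Adamts15, a matrix protease, had effects of -0.54 ± 0.17 and 1.14 ± 0.17 and a PBS change of -1.30 ± 0.17. Akap12, a scaffold of protein kinase A, ran the other way, with 1.13 ± 0.14 at 6 h and -0.51 ± 0.14 at 24 h. The class is sensitive to the threshold: Hspa1b and Lox changed class in 7 of 20 fits without 1 AJ array each, Akap12 in 4, Adamts15 in 3 and Hmox1 in none. Adamts15 was late with median centring, and Hmox1 was transient with the muscle and adipose covariates, where its 24 h effect had an adjusted p of 0.0811. Of the 8 opposed genes named by the rule, 0 kept the class in every alternative and left-out fit. Hspa1b, Lox, Akap12 and Hmox1 kept the interaction call in all 20 fits without 1 AJ array.

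The 16 glucocorticoid-induced genes and metallothioneins had a median change between 6 h and 24 h of -1.04 in allergen arrays and -0.76 in PBS arrays, against 0.06 and -0.02 over all genes. Fkbp5, a co-chaperone of the glucocorticoid receptor, changed by -1.10 ± 0.21 in allergen arrays and -1.60 ± 0.21 in PBS arrays (adjusted p = 0.000134 and 2.73e-06). For Tsc22d3 the difference was -0.11 ± 0.22 in allergen arrays and -1.38 ± 0.22 in PBS arrays (adjusted p = 0.811 and 9.66e-05). Of the list, 2 passed with a positive interaction and 2 with a negative one. Tsc22d3 was one of the positive calls; the other, Angptl4, an inhibitor of lipoprotein lipase (1.07 ± 0.33), reversed its sign when its disagreeing probe sets were averaged and lost the call in 12 of 20 fits without 1 array.

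Clock genes were split among the classes. Of 17 measured, 5 were sustained lower, 3 transient lower, 3 sustained higher, 1 transient higher and 1 late higher; 3 passed with a negative interaction and 1 with a positive one. Nr1d1, the repressor Rev-erb alpha, measured 162, 281, 259.9, 297 and 231 in allergen arrays at 6 h, against 396, 331, 274, 465 and 437 in PBS arrays. At 24 h Nr1d1 measured 64.1, 134, 159, 169.7 and 88.3 in allergen arrays, against 449.9, 582, 539, 745 and 346 in PBS arrays. The groups overlapped at 6 h and were apart at 24 h, with an interaction of -1.41 ± 0.31 (adjusted p = 0.00322). Its 6 h effect of -0.60 ± 0.22 had an adjusted p of 0.0477, and it was a late gene in 6 of 11 alternatives and in 11 of 20 fits without 1 array. Dbp, a clock output factor, measured 81.5, 66.2, 73.96, 88.5 and 94.7 in allergen arrays at 6 h, against 321, 303, 283, 384 and 302 in PBS arrays. At 24 h Dbp measured 43.7, 98.6, 90.4, 68.8 and 59.6 in allergen arrays, against 432, 631, 354, 414 and 524 in PBS arrays, with no overlap at either time. Its interaction of -0.69 ± 0.30 did not pass (adjusted p = 0.197). Tef, a relative of Dbp, had effects of -1.55 ± 0.12 at 6 h and -0.60 ± 0.12 at 24 h and the positive call (0.96 ± 0.17), which was lost with the mean of its probe sets. Nfil3, a repressor of the same D-box sites, was higher at both times and waned (-1.09 ± 0.26), and Bhlhe40, another repressor, was transient higher (-1.05 ± 0.23). Arntl, the activator Bmal1, was higher by 1.11 ± 0.15 at 6 h and by 0.90 ± 0.15 at 24 h.

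Late lower genes included muscle and detoxification genes. Of 26 cardiac and skeletal muscle markers, 9 were late lower, a class of 2.15% of all genes, and none was in another class. The interaction was passed by 2, both negative, a share of 7.69% beside the 5.62% of all genes. The median 24 h effect was -1.36. That list's levels differed widely between arrays of 1 group. Ckmt2, the sarcomeric mitochondrial creatine kinase, measured 106, 67.6, 60.1, 248 and 297 in allergen arrays at 6 h, against 63.6, 80.04, 182, 90.1 and 73.04 in PBS arrays. The 24 h values were 23.1, 58.02, 65.4, 73.2 and 68.5 in allergen arrays, against 157, 364, 163, 108 and 495 in PBS arrays. The groups overlapped at 6 h and were apart at 24 h, within a wide spread, and the interaction was -2.18 ± 0.64 (adjusted p = 0.0357). That call was lost in 10 of 20 fits without 1 array, with an adjusted p of up to 0.0839, and that of Myh7, a myosin heavy chain (-0.80 ± 0.24), in 11. The mean log2 level of the 26 markers ranged from 6.63 to 9.07 in allergen arrays at 6 h and from 6.82 to 8.25 in PBS arrays at 6 h. At 24 h it ranged from 6.60 to 7.40 in allergen arrays and from 7.89 to 8.85 in PBS arrays. Fabp3, a fatty acid binding protein of muscle (-2.09 ± 0.50), and Eef1a2, a muscle and nerve elongation factor (-1.40 ± 0.38), were late lower too. With the mean levels of the muscle and adipose lists as covariates, the calls of Fabp3 and Eef1a2 were lost, and 517 of 12356 genes passed the interaction. The mean level of the muscle list was itself apart between the 24 h groups. In the covariate fit, muscle content and an effect of the allergen therefore cannot be told apart. The part of muscle content in the late lower genes was not tested. Esm1, an endothelial proteoglycan (-1.63 ± 0.34), and Gpx2, an epithelial glutathione peroxidase (-1.53 ± 0.32), were also late lower. In PBS arrays, Esm1, Fabp3 and Eef1a2 were higher at 24 h than at 6 h, by 1.46, 1.31 and 1.07. These changes passed (limma adjusted p = 0.00013, 0.0221 and 0.0138), those of Fabp3 and Eef1a2 not with the covariates. Gpx2 was in no class with the covariates, where its 24 h effect had an adjusted p of 0.114, and it was opposed with AJ arrays alone and with median centring. Ces1g, a carboxylesterase, was lower at both times and grew (-0.51 ± 0.15 at 6 h and -2.09 ± 0.15 at 24 h, interaction -1.58 ± 0.21), with a PBS change of 1.41 ± 0.15.

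Marker lists of other cells are read beside the 5.62% of all genes that passed the interaction. The share that passed was 23.1% among dendritic cell and monocyte markers, 15.4% among mast cell and basophil markers, and between 7.14% and 9.09% in each of the lists for lymphocytes, club cells, alveolar epithelium, fat and smooth muscle. Of 23 T and NK cell markers, 2 passed, both negative: Gzmb, granzyme B (-1.74 ± 0.39), and Ctla4, an inhibitory receptor (-1.23 ± 0.35), whose call was lost in 6 of 20 fits without 1 array. Of 13 dendritic cell and monocyte markers, 5 were sustained higher and 3 passed, all negative, among them Cd83, a marker of dendritic cell maturation (-1.91 ± 0.38), and Cd14, the lipopolysaccharide co-receptor (-1.81 ± 0.27). Of 13 mast cell and basophil markers, Hdc, which makes histamine, was transient higher (-1.58 ± 0.39) and Kit, the stem cell factor receptor, transient lower (0.79 ± 0.18), and the call of Kit was lost with the covariates (adjusted p = 0.0683). Of 12 club cell markers, 5 were late lower and 1 passed the interaction, Chad (-1.32 ± 0.35). Of 14 alveolar epithelium markers, 4 were transient lower and 1 passed, Rtkn2. Of 12 B and plasma cell markers, 6 were sustained higher and 1 passed, Sdc1 (-0.58 ± 0.14). Sdc1 was late lower instead, a class kept in 14 of 20 fits without 1 array and in 8 of 11 alternatives. Of 11 adipose markers, 3 were late lower and 1 passed, Scd1, a fatty acid desaturase (-0.78 ± 0.20). Of 13 smooth muscle markers, 2 were transient lower and 1 passed, Lmod1 (1.02 ± 0.29), lost in 7 of 20 fits. No ciliated cell or erythroid marker passed, of 7 and 6 measured.

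Of the remaining pathway lists, 1 of 11 genes of MHC class II and presentation passed, the costimulator Cd86 (-0.90 ± 0.21). Of 11 FGF and ERK feedback genes, Spry4, an inhibitor of that pathway, was negative (-1.26 ± 0.31) and Etv5 positive. Of 10 genes of arginine metabolism, Odc1, which starts polyamine synthesis, was negative (-0.71 ± 0.19) and Srm, spermidine synthase, positive (0.76 ± 0.21), the last lost in 2 of 20 fits. Of 22 antioxidant and haem genes, 2 passed in each direction, Hmox1 with the largest value. Of 19 genes of xenobiotic metabolism, 4 were sustained lower, and Fmo1, a monooxygenase, was positive (0.88 ± 0.20) and Ephx1, an epoxide hydrolase, negative (-0.61 ± 0.17), the last lost in 1 of 20 fits and with the covariates (adjusted p = 0.0933). Of 39 cell cycle and mitosis genes, 33 were in no class and none passed the interaction in limma.

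The same interaction in C3H lung was smaller in number. It was passed by 109 genes (0.88%), against 697 in AJ. Of the 260 genes negative in AJ, 208 had a negative sign in C3H, and 28 passed there with either sign, where 0.88% of all genes passed. Of the 437 positive in AJ, 317 had a positive sign in C3H, and 11 passed there with either sign. The share of all genes with each sign in C3H was not counted, and the median C3H interaction over all genes was -0.04. The sign counts are therefore a description. A count that passes in 1 strain and not in the other is not a test of the strains. That test, the AJ interaction minus the C3H interaction, was passed by 42 genes (0.339%), with a median of 0.10 over all genes, and 37 of them were among the 697. Without any single AJ array the count lay between 24 and 78. Among the named genes 13 passed. The AJ interaction is a term of this test, and many named genes were chosen for a large one. Neither the 37 nor the 13 is therefore a separate result.

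Of the transient higher genes, Ptx3 differed by -1.65 ± 0.32 (adjusted p = 0.0137), with an interaction of -2.68 ± 0.22 in AJ and -1.03 ± 0.22 in C3H. The antiviral genes Mx1, Mx2 and Rsad2 had interactions of -1.32 ± 0.21, -2.16 ± 0.35 and -1.58 ± 0.30 in AJ, against 0.34 ± 0.21, 0.03 ± 0.35 and 0.22 ± 0.30 in C3H. Their strain differences of -1.67 ± 0.30, -2.18 ± 0.49 and -1.80 ± 0.43 passed (adjusted p = 0.00898, 0.0384 and 0.0494). Those of Mx2 and Rsad2 were lost in 8 and 15 of 20 fits without 1 AJ array. Of the transient lower genes, Sox18 had 1.99 ± 0.26 in AJ and -0.17 ± 0.26 in C3H, a difference of 2.16 ± 0.36 (adjusted p = 0.00317). Hey1 had 1.95 ± 0.20 in AJ and 0.38 ± 0.20 in C3H, a difference of 1.57 ± 0.29. Of the late higher genes, Cd163 had 2.29 ± 0.29 in AJ and -0.13 ± 0.29 in C3H, a difference of 2.42 ± 0.40 (adjusted p = 0.00317), and Fst differed by 1.96 ± 0.41. Hspa1b (2.13 ± 0.47), Lox (2.36 ± 0.50), Akap12 (-1.43 ± 0.29), Kit (1.17 ± 0.26) and Ces1g (-1.29 ± 0.30) passed as well, and Hspa1b, Kit and Ces1g were lost in 3, 6 and 17 of the 20 fits. Lox was lost with the mean of its probe sets and with tissue covariates. Akap12, Cd163, Fst, Hey1, Mx1, Ptx3 and Sox18 passed in all 20 fits and all alternatives run. For Il6, Csf3 and Acod1 the strain difference did not pass (adjusted p = 0.0746, 0.0629 and 0.341). For Cxcl2 it was -0.29 ± 0.49 with a 95% interval of -1.28 to 0.71, and for Rnase2a -0.04 ± 0.59 with -1.24 to 1.16.

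**Figure D5:**
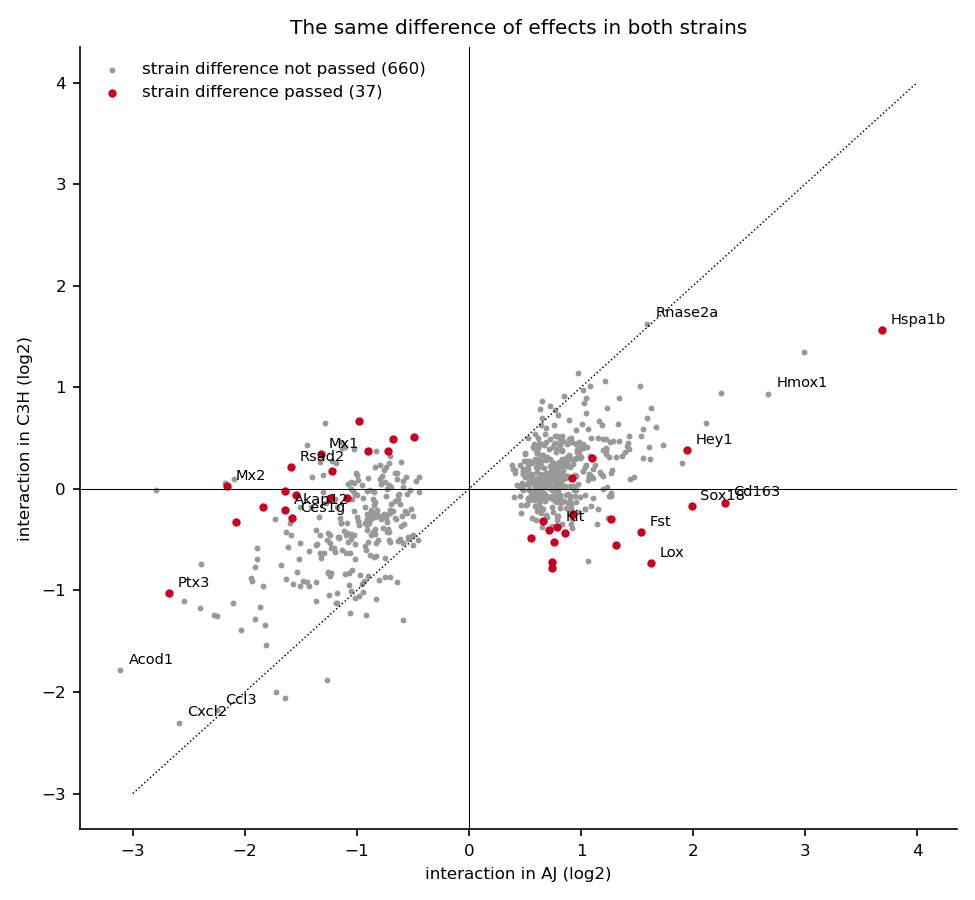
Each point is 1 of the 697 genes that passed the interaction in AJ, with the AJ interaction on the x axis and the C3H interaction on the y axis (both log2); the dotted line marks equal interactions. The 37 red genes passed the test of the strain difference; Ptx3 lies at -2.68 in AJ and -1.03 in C3H, Sox18 at 1.99 and -0.17, and Cd163 at 2.29 and -0.13, while Cxcl2 and Rnase2a lie near the line.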

How the data were processed

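Total lung RNA of 40 mouse samples was measured on 1-colour oligonucleotide arrays. The deposited values are intensities, 1 per probe set and array, and the authors' software and scaling steps were not given in the sources used here; every array had a mean near 150.04 after 2% of probe sets were trimmed at each end. No raw scans or detection calls were used here, and the number of arrays limits the precision. Probe sets were named through the platform annotation with symbols checked in RefSeq: of 22690, 20380 had 1 gene symbol, 691 several and 1555 none, and 64 were controls. The brightest probe set stood for each of 12393 genes, 4956 of which had several.

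A linear model of 8 group means on log2(intensity + 16), with no other normalization, was fitted to all 40 arrays in limma 3.58.1 (R 4.3.3), with empirical Bayes moderation, two-sided tests and Benjamini-Hochberg adjustment over all genes at 0.05. Of all values, 13.59% lay below the pseudocount of 16. No 2 arrays were identical, and AJ arrays correlated between 0.8934 and 0.9776. The same fit was also run on simulated data with a known interaction and the spread of the main fit, and its outcome is not reported here. Genes were named by a rule: the 6 with the largest interaction of each kind among those without overlap between groups, the 6 sustained genes of each sign with the largest effects at both times, the 4 members of each list with the largest interaction that passed, and 8 genes in any case. Other members were named as examples after their values were seen. The rule, the members and the lists were chosen with earlier results of these data known. Replicate numbers were shared between the groups. Between AJ groups, deviations of same-numbered arrays correlated over genes by -0.08 to 0.06 on average, against -0.02 to 0.02 for other arrays. The highest averages, 0.06, were between allergen and PBS arrays of the same time. These values are small but do not exclude a pairing, and none was used. Promoter windows came from RefSeq GRCm38.p6, which held 9887 of the genes. Tables and figures were made in Python 3.11.15. Alternatives were the AJ arrays alone, array weights, the mean of all probe sets, median centring, quantile normalization, pseudocounts of 1 and 64, robust moderation, no dim genes, the muscle and adipose means as covariates, a replicate block, a log2 threshold of 1, and leaving out each AJ array.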

Additional observations from a re-analysis of the deposited data

Results flagged for a closer look

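Single arrays that stood apart from the other 4 of their group were sought with Dixon's ratio, the gap to the nearest array divided by the range, against its 95% critical value for 5 samples; chance alone passes about 1 group in 20. Of 148 mean levels of lists examined, 8 passed. At 24 h with allergen, the chemokines for monocytes, eosinophils and lymphocytes (ratio 0.825), arginine metabolism (0.787) and cardiac and skeletal muscle (0.806) were low on replicate 5, the antiviral list (0.712) was low on replicate 2, and the T and NK cell list (0.719) was high on replicate 3. At 6 h, the mast cell and basophil list was low on allergen replicate 2 (0.728) and high on PBS replicate 4 (0.715), and the smooth muscle list was high on PBS replicate 5 (0.745).

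Of 108 levels of the 27 genes shown array by array, 7 passed. In allergen arrays at 6 h, Cd163 was low on replicate 2 (0.782). In allergen arrays at 24 h, Ccl8 was high (0.744) and Ckmt2 low (0.774) on replicate 1, and Lox was high (0.806) and Timp1 low (0.847) on replicate 5. In PBS arrays at 24 h, Clca1 was high on replicate 3 (0.928) and Hey1 low on replicate 2 (0.723).

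The interaction differed between AJ and C3H, by the test of the difference itself, for 13 named genes. AJ minus C3H, it was positive for Cd163 (2.42), Lox (2.36), Sox18 (2.16), Hspa1b (2.13), Fst (1.96), Hey1 (1.57) and Kit (1.17). It was negative for Mx2 (-2.18), Rsad2 (-1.80), Mx1 (-1.67), Ptx3 (-1.65), Akap12 (-1.43) and Ces1g (-1.29). The interaction was passed by 697 genes in AJ and 109 in C3H, and 42 genes passed the difference.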

How the results depend on the processing

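With 1 AJ array left out at a time, the interaction was passed by 592 to 825 genes, PBS 24 h against 6 h by 342 to 790, and the strain difference by 24 to 78; there were 8 to 19 opposed genes, 22 to 52 late lower and 11 to 16 growing genes with the interaction passed. With array weights, 1118 genes passed the interaction, 738 of them positive, 1149 passed PBS 24 h against 6 h and 149 the strain difference, with 33 opposed, 566 transient lower and 82 late lower genes (the last pair with the interaction passed, as below). With median centring, 274 were positive, with 12 opposed, 217 transient lower, 26 late higher and 53 late lower genes. With muscle and adipose covariates, 278 were positive, 551 passed at 24 h, 238 PBS 24 h against 6 h and 27 the strain difference, with 196 late, 4 opposed, 21 late higher, 18 waning and 7 growing genes. With a log2 change over 1 required as well, which can only lower counts, 227 passed the interaction (133 negative, 94 positive), 418 at 6 h, 224 at 24 h, 304 in allergen and 83 in PBS arrays between the times, and 47 in C3H. That left 296 transient, 122 sustained, 102 late and 0 opposed genes, and, with the interaction, 82 transient higher, 52 transient lower, 10 late higher, 13 late lower, 11 waning and 4 growing genes. The replicate block gave 711 calls, 667 of them shared, although same numbers were not taken as pairs in the main fit. AJ arrays alone gave 726, pseudocounts of 1 and 64 gave 647 and 746, and quantile normalization 638. Leaving out the dimmest 25% of genes gave 696 of 9294. Apart from the log2 requirement, the cause of these moves was not tested. Of 107 named genes that passed the interaction, 71 passed in every fit that held them, out of 11 alternative and 20 left-out fits. Some named genes had no value in the fit without dim genes or in the covariate fit, and such a fit was not counted for them. The sign turned for Angptl4 with the mean of probe sets (-0.44) and otherwise, in the fits run, only for interactions that did not pass: Acaa1b (0.118 with covariates, 0.053 with pseudocount 64, without 1 array -0.155 to 0.066), Ccl24 (-0.053 with centring, -0.074 with covariates, -0.045 with pseudocount 64, without 1 array -0.152 to 0.239), Clca1 (without 1 array -0.416 to 0.525), Fxr2 (0.431 with covariates, without 1 array -0.565 to 0.127), Scgb1a1 (0.024 with quantile normalization, without 1 array -0.117 to 0.0895) and Sftpc (-0.017 with centring, without 1 array -0.057 to 0.155).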
